A study of Mus musculus with 12 samples.

Results

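White adipocyte genes are the genes of the fat-storing cells that fill the mammary fat pad, and 37 of them were followed here through 12 RNA-seq libraries of mouse mammary tissue. They are 37 of 23301 gene names found in all 12 files, and all 37 were found. The members were chosen by name with both comparisons of these data already known, so their levels and differences are given as a description, without a p-value. Cyp2e1 and Pck1 were added because they stood out in these data.

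The 12 libraries, 3 in each of 4 groups, came from female mice aged 12 weeks. Normal was untreated mammary gland of FVB wild type mice, with the abdominal and inguinal glands of 3 mice mixed in each replicate. Tumor was untreated tumor of the thoracic gland of MMTV-PyVT mice, 1 mouse per replicate. These mice are heterozygous for the polyoma virus middle T oncogene, which the mouse mammary tumor virus promoter drives in mammary epithelium. DMSO and C646 were tumors of MMTV-PyVT mice injected intraperitoneally from the age of 8 weeks with the solvent DMSO or with C646, an inhibitor of the histone acetyltransferase p300, and the biggest tumor of each mouse was taken. The labels give 1 mg/kg for both injections. Genotype, gland position and pooling changed together between Normal and Tumor and cannot be told apart. The Normal and Tumor files were made separately from the DMSO and C646 files, so no test was run between the pairs.

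White adipocytes store triglyceride in 1 large lipid droplet, release fatty acids from it by lipolysis, and secrete hormones such as leptin and adiponectin. PPARγ, encoded by Pparg, and C/EBPα, encoded by Cebpa, are the transcription factors that drive and maintain the adipocyte program. In the mammary gland the epithelial ducts grow within a fat pad made largely of these cells. Most of the genes listed are also used by brown adipocytes, which burn fat by means of the uncoupling protein Ucp1. In whole tissue, fewer adipocytes and less RNA per adipocyte cannot be told apart.

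The values are FPKM, fragments divided by transcript length and by the mapped fragments of the library, which allow levels to be compared between genes. The sum of FPKM per library was 550599 to 639409 in Normal, 625568 to 783719 in Tumor, 553988 to 638606 in DMSO and 526855 to 554041 in C646. Read totals are unknown. The glyceraldehyde-3-phosphate dehydrogenase gene Gapdh was listed at 0 in 3 of the Normal and Tumor libraries. A 0 may therefore be a failed estimate, and members with a 0 are given library by library. Summed over 5 epithelial markers, the level was 2106 to 3040 FPKM in Tumor, 2427 to 2676 in DMSO, 2044 to 2610 in C646 and 310 to 636 in Normal. Epithelial markers were therefore present in every library.

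The promoters of 5 members are shown, those of the hormones Lep and Adipoq and the droplet proteins Cidec and Plin1, all far lower in Tumor, and that of G0s2, the one member that was not. Sequences are from RefSeq on GRCm38.p6, the build called mm10, and run 5′ to 3′ on the gene's strand from 250 bases before to 50 bases after the annotated start. Capitals mark matches, on either strand, to TTGCNNAA, a C/EBP-type motif that includes the palindrome TTGCGCAA, or to a loose form of the direct repeat bound by PPARγ with RXR, AGGNNA followed after 1 base by AGGNCA.
Lep, chr6:29059971-29060270, plus strand: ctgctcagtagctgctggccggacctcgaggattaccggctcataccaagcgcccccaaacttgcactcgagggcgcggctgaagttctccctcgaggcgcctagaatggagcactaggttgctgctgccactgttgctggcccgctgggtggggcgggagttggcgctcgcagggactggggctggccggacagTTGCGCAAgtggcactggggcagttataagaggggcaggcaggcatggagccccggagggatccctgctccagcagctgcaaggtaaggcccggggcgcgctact
Adipoq, chr16:23146286-23146585, plus strand: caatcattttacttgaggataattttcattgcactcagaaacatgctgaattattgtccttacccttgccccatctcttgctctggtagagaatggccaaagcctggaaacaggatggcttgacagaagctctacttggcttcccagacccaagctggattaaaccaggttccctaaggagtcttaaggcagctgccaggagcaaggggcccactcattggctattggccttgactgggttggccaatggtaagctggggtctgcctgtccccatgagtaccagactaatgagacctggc
Cidec, chr6:113435711-113436010, minus strand: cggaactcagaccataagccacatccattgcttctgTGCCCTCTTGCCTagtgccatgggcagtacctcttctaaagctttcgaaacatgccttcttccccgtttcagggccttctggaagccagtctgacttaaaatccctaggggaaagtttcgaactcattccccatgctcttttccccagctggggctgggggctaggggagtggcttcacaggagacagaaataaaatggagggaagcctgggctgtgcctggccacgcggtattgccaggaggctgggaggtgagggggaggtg
Plin1, chr7:79732727-79733026, minus strand: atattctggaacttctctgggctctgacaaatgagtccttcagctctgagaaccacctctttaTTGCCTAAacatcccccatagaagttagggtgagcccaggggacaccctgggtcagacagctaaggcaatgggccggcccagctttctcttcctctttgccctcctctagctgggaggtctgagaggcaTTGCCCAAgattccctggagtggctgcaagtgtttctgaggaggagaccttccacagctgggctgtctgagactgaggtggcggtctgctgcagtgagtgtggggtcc
G0s2, chr1:193273139-193273438, minus strand: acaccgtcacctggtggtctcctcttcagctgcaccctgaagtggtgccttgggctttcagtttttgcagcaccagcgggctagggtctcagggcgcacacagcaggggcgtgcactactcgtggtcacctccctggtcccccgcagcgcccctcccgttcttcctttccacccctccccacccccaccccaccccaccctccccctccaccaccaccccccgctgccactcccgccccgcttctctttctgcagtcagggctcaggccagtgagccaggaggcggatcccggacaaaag

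The Lep window held the palindrome 55 bases before the start, and the Plin1 window held 2 matches to TTGCNNAA. The Adipoq window, like that of G0s2, held no match, and a second Cidec window that is not shown held 1 match to TTGCNNAA. Promoter windows were given for 25 of the 37 members, 35 windows in all. TTGCNNAA was found in 14.3% of these 35 windows (Cidec, Lep, Plin1, Pparg and Rbp4) and in 10.8% of all 32851 windows. The palindrome was found in 2.86% of member windows, in Lep, and in 0.183% of all windows. The loose direct repeat was found in 5.71% of member windows (Aqp7 and Cidec) and in 0.913% of all windows, and its strict form, AGGTCA repeated with 1 base between, in none of the members and in 0.0396% of all. A match is a description of the letters and not a bound site.

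Normal gland and tumor were compared to ask how expression differs between healthy tissue and cancer. The white adipocyte genes together were far lower in Tumor. Their summed FPKM took 6.63% to 7.48% of all FPKM in the Normal libraries, and 0.5004%, 0.127% and 0.105% in Tumor replicates 1, 2 and 3. The mean over the 37 genes of log2(FPKM + 0.03125) was 8.36 ± 0.17 in Normal and 2.62 ± 1.56 in Tumor (SD, n = 3 each). The Normal libraries lay at 8.17, 8.48 and 8.43 and the Tumor libraries at 4.40, 1.48 and 1.97. The lowest Normal library was thus above the highest Tumor library, and Tumor replicate 1 stood apart from the other Tumor libraries.

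**Figure D1:**
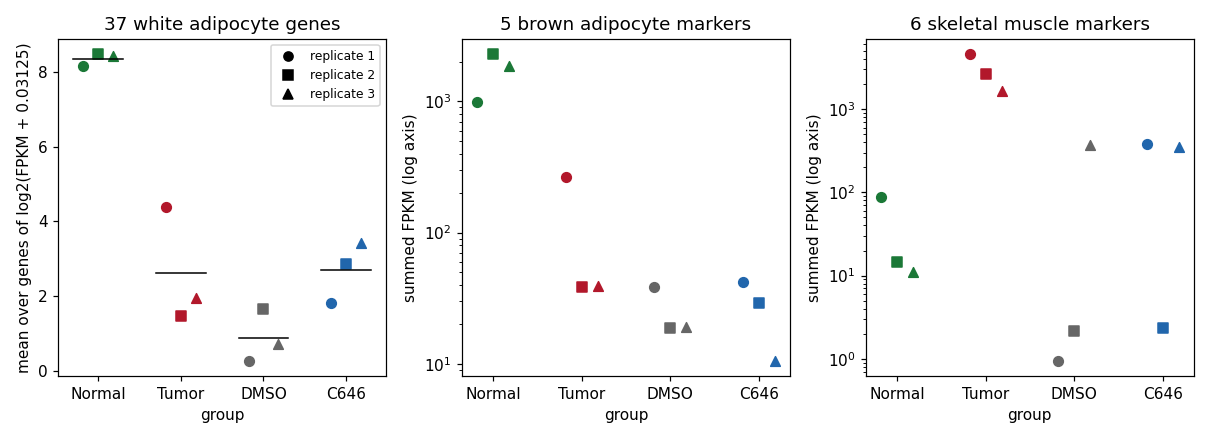
Left, the mean over 37 white adipocyte genes of log2(FPKM + 0.03125) in each library (points, shaped by replicate) with the group mean (line). Middle and right, summed FPKM of 5 brown adipocyte and 6 skeletal muscle markers on a log axis. Tumor replicate 1, at 4.40, lies above the other Tumor libraries in all 3 panels, and the C646 libraries lie at 1.81 to 3.43 in the left panel against 0.28 to 1.66 for DMSO.

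In 36 of 37 members every Tumor library lay below every Normal library, the exception being G0s2, and 31.1% of all 18720 names with a value above 0 did the same. No member had every Tumor library above every Normal library, as 25.8% of all names had. In the limma test over all 13031 genes with at least 1 FPKM in 3 of the 6 libraries, all 37 members passed that filter, 36 were past the 0.05 threshold as lower and 0 as higher, against 31.7% of genes lower and 28.8% higher. Nothing is read from these counts, since the members were selected on this contrast. The median log2 fold change of the 37 members was -6.35 and that of all genes tested was -0.02. The Tumor mean was under 10% of the Normal mean in 31 members, a count whose share over all names was not computed. The other members were Cebpa, Angptl4, G0s2, Mgll, Lpin1 and Dgat1.

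**Figure D2:**
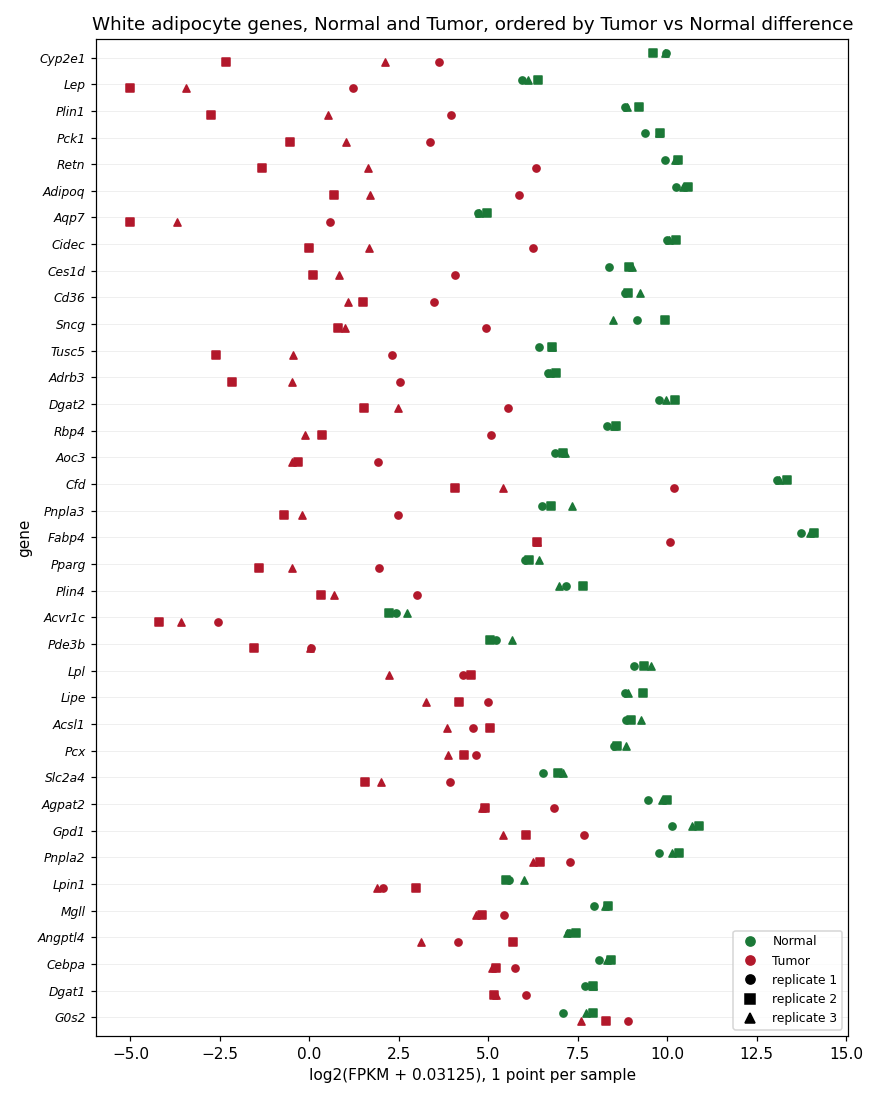
log2(FPKM + 0.03125) of each white adipocyte gene in the 3 Normal (green) and 3 Tumor (red) libraries, with genes ordered by the Tumor vs Normal difference. The groups are apart in 36 genes and overlap in G0s2 alone.

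Pparg was measured at 65.2, 70.3 and 85.2 FPKM in the Normal libraries and at 3.79, 0.347 and 0.680 FPKM in the Tumor libraries. Cebpa was at 275, 345 and 319 FPKM in Normal and at 54.1, 36.9 and 34.3 FPKM in Tumor. The log2 fold change was -6.18 for Pparg (SE 0.76) and -2.93 for Cebpa (SE 0.20). Cebpa was thus among the members with the smallest decrease, and it kept a Tumor mean at 13.3% of the Normal mean, compared with 2.18% for Pparg.

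The secreted proteins made up 6 members, with log2 fold changes from -8.55 to -2.97. Adiponectin (Adipoq), the insulin-sensitizing hormone of fat, was at 1207, 1517 and 1401 FPKM in Normal and at 58.2, 1.56 and 3.20 FPKM in Tumor. Leptin (Lep), the satiety hormone, was at 61.1, 83.7 and 68.7 FPKM in Normal and at 2.30 and 0.0596 FPKM in Tumor replicates 1 and 3, and it was listed at 0 in Tumor replicate 2. Resistin (Retn), a fat-derived hormone in mice, was at 986, 1249 and 1189 FPKM in Normal and at 79.7, 0.364 and 3.07 FPKM in Tumor. In each of these hormones Tumor replicate 1 held the highest Tumor value by far.
Cfd encodes adipsin, the complement factor D made by fat. It was at 8523, 10408 and 8868 FPKM in Normal and at 1164, 16.7 and 42.3 FPKM in Tumor. Adipsin was thus, after Fabp4, the member with the highest level in Normal, and 1 Tumor library stood far above the others. Angptl4, an inhibitor of lipoprotein lipase, was at 154, 174 and 146 FPKM in Normal and at 17.8, 51.7 and 8.72 FPKM in Tumor. It was the secreted protein with the smallest decrease, a log2 fold change of -2.97 (SE 0.57), and its highest Tumor library was replicate 2. Rbp4, the carrier of retinol in blood, had a log2 fold change of -6.70 (SE 1.24).

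Of the 4 lipid droplet proteins, 3 were much lower in Tumor. Perilipin 1 (Plin1), which coats the droplet and gates lipolysis, was at 448, 590 and 471 FPKM in Normal and at 15.5, 0.119 and 1.40 FPKM in Tumor. Cidec, which fuses droplets into larger ones, was at 1022, 1213 and 1066 FPKM in Normal and at 76.1, 0.952 and 3.13 FPKM in Tumor. The log2 fold changes were -8.38 for Plin1 (SE 1.45) and -7.47 for Cidec (SE 1.40). Plin4, another droplet coat protein, had a log2 fold change of -5.92.
G0s2, which encodes an inhibitor of the lipase Pnpla2, went the other way. It was at 136, 243 and 214 FPKM in Normal and at 476, 313 and 194 FPKM in Tumor. The groups overlapped, and the log2 fold change was 0.68 (SE 0.36). Without Tumor replicate 3, G0s2 was past the limma threshold as higher.

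The 8 lipolysis genes had log2 fold changes from -7.50 to -3.22. Hormone-sensitive lipase (Lipe) was at 451, 637 and 475 FPKM in Normal and at 31.6, 18.1 and 9.45 FPKM in Tumor. Adipose triglyceride lipase (Pnpla2), which takes the first fatty acid off triglyceride, was at 873, 1281 and 1113 FPKM in Normal and at 155, 86.3 and 76.1 FPKM in Tumor. Adrb3, the adipocyte receptor for noradrenaline, was at 102, 119 and 106 FPKM in Normal and at 5.72, 0.191 and 0.679 FPKM in Tumor. The receptor had the larger decrease, with a Tumor mean at 2.01% of the Normal mean, compared with 3.79% for Lipe and 9.72% for Pnpla2. Pde3b, the phosphodiesterase through which insulin restrains lipolysis, was at 37.3, 33.2 and 50.5 FPKM in Normal and at 0.993, 0.311 and 0.987 FPKM in Tumor. It passed the filter only through its Normal libraries, as did Acvr1c. The other lipolysis genes were the lipid hydrolase Ces1d with a log2 fold change of -7.10, Pnpla3 with -6.35, Mgll, the monoglyceride lipase, with -3.22, and the glycerol channel Aqp7. Aqp7 was at 26.0, 31.1 and 26.6 FPKM in Normal and at 1.45 and 0.0464 FPKM in Tumor replicates 1 and 3, and it was listed at 0 in Tumor replicate 2.

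The 4 genes of fatty acid uptake and binding were all lower. Fabp4, the fatty acid carrier of the adipocyte cytoplasm, was at 13737, 17616 and 16228 FPKM in Normal and at 1080, 81.7 and 82.3 FPKM in Tumor. Lipoprotein lipase (Lpl), which frees fatty acids from blood lipoproteins, was at 535, 654 and 753 FPKM in Normal and at 19.6, 22.7 and 4.65 FPKM in Tumor. The fatty acid receptor Cd36 was at 449, 483 and 607 FPKM in Normal and at 11.2, 2.77 and 2.09 FPKM in Tumor. Fabp4 was the member with the highest level in Normal, and its Tumor libraries stayed above 80 FPKM. Lpl was 1 of the 4 members whose highest Tumor library was replicate 2 and not replicate 1. Acsl1, which activates fatty acids with coenzyme A, was another of those 4, with a log2 fold change of -4.55 (SE 0.30).

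Among 7 genes of triglyceride synthesis and glyceroneogenesis the log2 fold changes ran from -8.36 to -2.38. Pck1, the enzyme that starts glyceroneogenesis in fat, was at 665, 891 and 869 FPKM in Normal and at 10.3, 0.652 and 2.01 FPKM in Tumor. Dgat1, which adds the last fatty acid to triglyceride and is used by many cell types, was at 208, 244 and 244 FPKM in Normal and at 66.8, 35.9 and 37.02 FPKM in Tumor. Its log2 fold change of -2.38 (SE 0.25) was the smallest decrease among the members. Dgat2, the other enzyme of this step, had a log2 fold change of -6.79 (SE 0.91).
Lpin1, the phosphatidate phosphatase of the pathway, was at 47.4, 45.1 and 64.4 FPKM in Normal and at 4.16, 7.86 and 3.69 FPKM in Tumor. Its Tumor mean was 10.01% of the Normal mean. Gpd1, which makes glycerol 3-phosphate, Agpat2, an acyltransferase, and Pcx, pyruvate carboxylase, had log2 fold changes of -4.20, -4.24 and -4.38.

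Slc2a4, the glucose transporter that insulin brings to the cell surface, was at 92.7, 123 and 135 FPKM in Normal and at 15.3, 2.90 and 3.98 FPKM in Tumor. Tusc5, which takes part in the trafficking of this transporter, had a log2 fold change of -6.91. Of the remaining 4 members, the cytochrome P450 gene Cyp2e1 was at 995, 777 and 987 FPKM in Normal and at 12.3, 0.168 and 4.28 FPKM in Tumor. Its log2 fold change was -8.70 (SE 1.34), the largest of the members over all 6 libraries. This rank is no separate result, since Cyp2e1 was added because it stood out in these data. Without Tumor replicate 1 the log2 fold change of Cyp2e1 was -9.94, and Lep, Plin1 and Retn were past it with -10.37, -10.07 and -10.00. Without Tumor replicate 2 it was -6.97, and Pck1 and Lep were past it with -7.44 and -7.26. Without Normal replicate 1 it was -8.64, and Lep was just past it with -8.66. Sncg, Aoc3 and Acvr1c had log2 fold changes of -6.94, -6.66 and -5.90.

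Tumor replicate 1 held the highest Tumor value in 33 of 37 members, while it was the highest in 44.1% of all names at 1 FPKM or more. In 20 members it was at least 5-fold above the mean of the other Tumor libraries, a count whose share over all names was not computed. Without it, 36 members were still below every Normal library and past the threshold as lower, and the median log2 fold change was -7.32. The 5 brown adipocyte markers summed to 265 FPKM in Tumor replicate 1 and to 38.2 and 38.9 FPKM in the other Tumor libraries. The 6 skeletal muscle markers summed to 4567, 2661 and 1662 FPKM in Tumor replicates 1, 2 and 3.

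Markers of other tissue moved with the comparison too. The brown adipocyte markers summed to 982, 2289 and 1854 FPKM in Normal, where Ucp1 itself was at 386, 901 and 663 FPKM. All 5 of these markers were past the threshold as lower in Tumor, as were 5 of 5 endothelial, 4 of 5 fibroblast and 4 of 5 macrophage markers, the other macrophage marker, Cd14, being higher. The B cell and lymph node markers summed to 149 to 185 FPKM in Normal and to at most 0.213 FPKM in Tumor, with Ms4a1 and Cr2 listed at 0 in all 3 Tumor libraries, and all 4 tested were lower. The 6 muscle markers, at 11.1 to 87.1 FPKM in Normal, and 5 of 6 epithelial markers were higher in Tumor. Beside these counts, 31.7% of all genes tested were lower and 28.8% higher. The part of tissue composition in the lower level of the adipocyte genes was not tested.

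A list of 46 further adipocyte genes, which are no members, gives the rest of the pathway. Of the 45 tested, 36 were lower and 5 higher in Tumor at an adjusted p under 0.05 (limma over all 13031 genes), and 4 did not pass. Over all genes tested, 31.7% were lower and 28.8% higher. The 36 include Hcar1, Npr3, Ffar4, Ebf1 and Sfrp5, which had every Tumor library under 1 FPKM, passed the filter only through Normal and were not tested without any 1 Normal library. The list was lower in all 9 lipid synthesis genes, in 7 of 8 receptors and insulin signalling genes, and in 6 of 8 droplet and caveola genes. The 5 lower genes with the largest change were Hcar1, the lactate receptor of fat, with a log2 fold change of -7.67, Mrap, a partner of the melanocortin receptor, with -7.03, Nat8l with -6.89, Npr3, the clearance receptor for natriuretic peptides, with -5.75, and Ffar4, a receptor for fatty acids, with -5.57. The adjusted p was 0.0052 for Mrap (SE 1.49) and 0.000628 for Nat8l (SE 0.92), and none is given for the other 3, which had to differ to be tested. Hcar1 was at 33.0, 36.0 and 34.6 FPKM in Normal and at 0.843, 0.0582 and 0.0310 FPKM in Tumor. Mrap was at 145, 167 and 155 FPKM in Normal and at 18.2, 0.166 and 0.438 FPKM in Tumor. Nat8l was at 39.4, 55.6 and 51.1 FPKM in Normal and at 2.13, 0.119 and 0.174 FPKM in Tumor. In these genes Tumor replicate 1 was the highest Tumor library. Npr3 was at 19.1, 20.98 and 13.6 FPKM in Normal and at 0.596, 0.198 and 0.216 FPKM in Tumor. Ffar4 was at 14.8, 22.4 and 14.5 FPKM in Normal and at 0.695, 0.260 and 0.181 FPKM in Tumor, so that replicate 1 was again the highest Tumor library.

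The 5 that were higher in Tumor were Cebpb, Apln, Srebf1, Abhd5 and Cebpd. Cebpb, an early factor of the adipocyte program that also acts in epithelium, rose from 101, 147 and 113 FPKM in Normal to 740, 571 and 576 FPKM in Tumor, a log2 fold change of 2.39 (SE 0.20, adjusted p = 8.02e-05). The peptide hormone gene Apln rose by 2.66 (SE 0.55, adjusted p = 0.00457) and Srebf1, a factor of lipid synthesis, by 1.37 (SE 0.30, adjusted p = 0.00568). Apln was at 3.52, 2.08 and 3.31 FPKM in Normal and at 15.9, 44.7 and 8.93 FPKM in Tumor. Srebf1 was at 109, 117 and 120 FPKM in Normal and at 476, 202 and 271 FPKM in Tumor, and both genes were apart between the groups. Abhd5, the co-activator of Pnpla2, rose by 0.92 (SE 0.34, adjusted p = 0.0476) and Cebpd by 0.75 (SE 0.27, adjusted p = 0.0426). Abhd5 was at 53.9, 50.1 and 76.4 FPKM in Normal and at 109, 179 and 71.2 FPKM in Tumor, and Cebpd at 19.4, 39.0 and 22.5 FPKM in Normal and at 47.0, 36.8 and 47.4 FPKM in Tumor, so that both overlapped between the groups. The calls of Abhd5 and Cebpd were lost in 9 and 7 of the alternatives, respectively, the fit without a filter on low values and quantile normalization among them. Rxra, Plin2, Fabp5 and Irs1 did not pass, with log2 fold changes of -0.25, -0.69, -0.50 and -0.47.

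**Figure D3:**
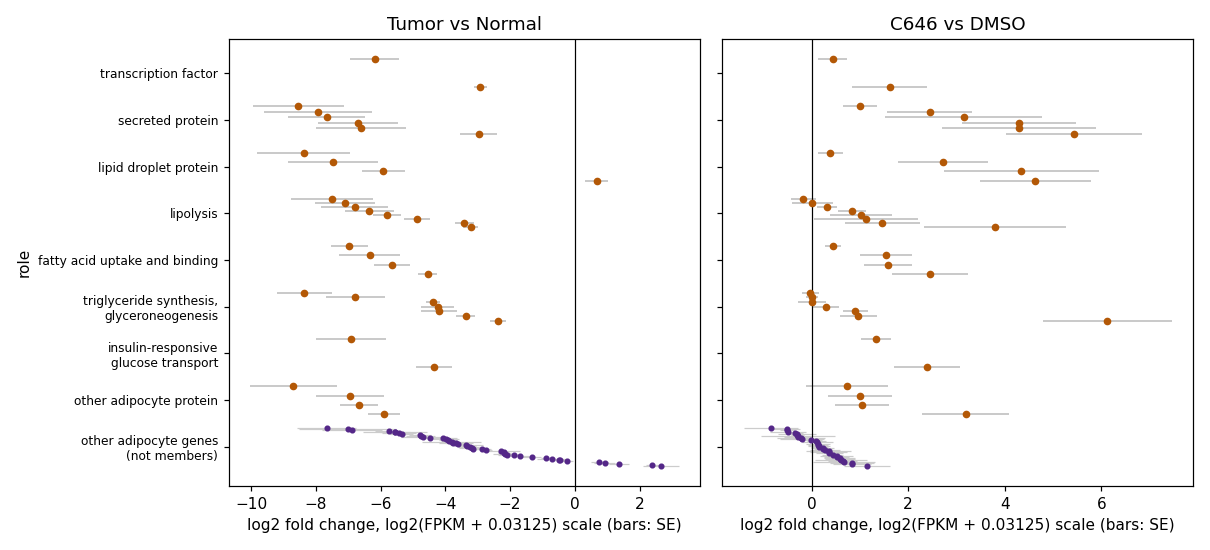
log2 fold changes on the log2(FPKM + 0.03125) scale with their SE (bars) for the 37 members by role (orange) and for the other adipocyte genes tested (purple), Tumor vs Normal on the left and C646 vs DMSO on the right. On the left 36 members lie below 0 and G0s2 lies at 0.68. On the right the members, those under the filter included, reach 6.12. The other adipocyte genes tested lie between -0.84 and 1.15, and those under the filter are not shown.

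C646 was compared with DMSO to ask what the p300 inhibitor changes in the tumors. Most adipocyte genes were at a low level in both groups, and most had a higher mean in C646. Exceptions to the low level included G0s2, at 207 to 422 FPKM, and Pnpla2, at 59.0 to 109 FPKM. The share of all FPKM held by the members was 0.118%, 0.126% and 0.0886% in DMSO replicates 1, 2 and 3 and 0.152%, 0.205% and 0.291% in C646 replicates 1, 2 and 3. G0s2 made up much of it, with 367 of 676 summed FPKM in DMSO replicate 1. It held 381 of 842 in C646 replicate 1 and 422 of 1533 in C646 replicate 3. The mean over the 37 genes of log2(FPKM + 0.03125) was 0.89 ± 0.70 in DMSO and 2.70 ± 0.83 in C646 (SD, n = 3 each). The libraries lay at 0.28, 1.66 and 0.73 in DMSO and at 1.81, 2.87 and 3.43 in C646, so that the lowest C646 library lay just above the highest DMSO library. The difference of 1.81 fell to 1.00 with a pseudocount of 1.

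In the limma test, 0 of 12083 genes passed the threshold in either direction, which is 0.0% of genes higher and 0.0% lower, and 0 of the 29 members tested did so. At an unadjusted p under 0.05, 16 of those members were higher and 0 lower, beside 1.4% of all genes higher and 1.78% lower. The 8 members under the filter were Pparg, Lep, Adrb3, Aqp7, Tusc5, Acvr1c, Cyp2e1 and Aoc3, and Plin1 and Pck1 passed it only through their C646 libraries. Over all 37 genes, the mean was higher in C646 in 33 and at least 2-fold higher in 22, as 8.44% of all names were. Without the filter, the log2 fold change was above 0 in 35 of the 37 and in 8518 of 17873 names. Every C646 library was above every DMSO library in 15 of 37 members, compared with 3.87% of 17873 names, and below in 0, compared with 3.93%. Nothing is read from these counts either, since this contrast was known when the members were chosen. The median log2 fold change was 1.00 over the 29 members tested, 1.12 over all 37 and -0.01 over all genes tested.

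**Figure D4:**
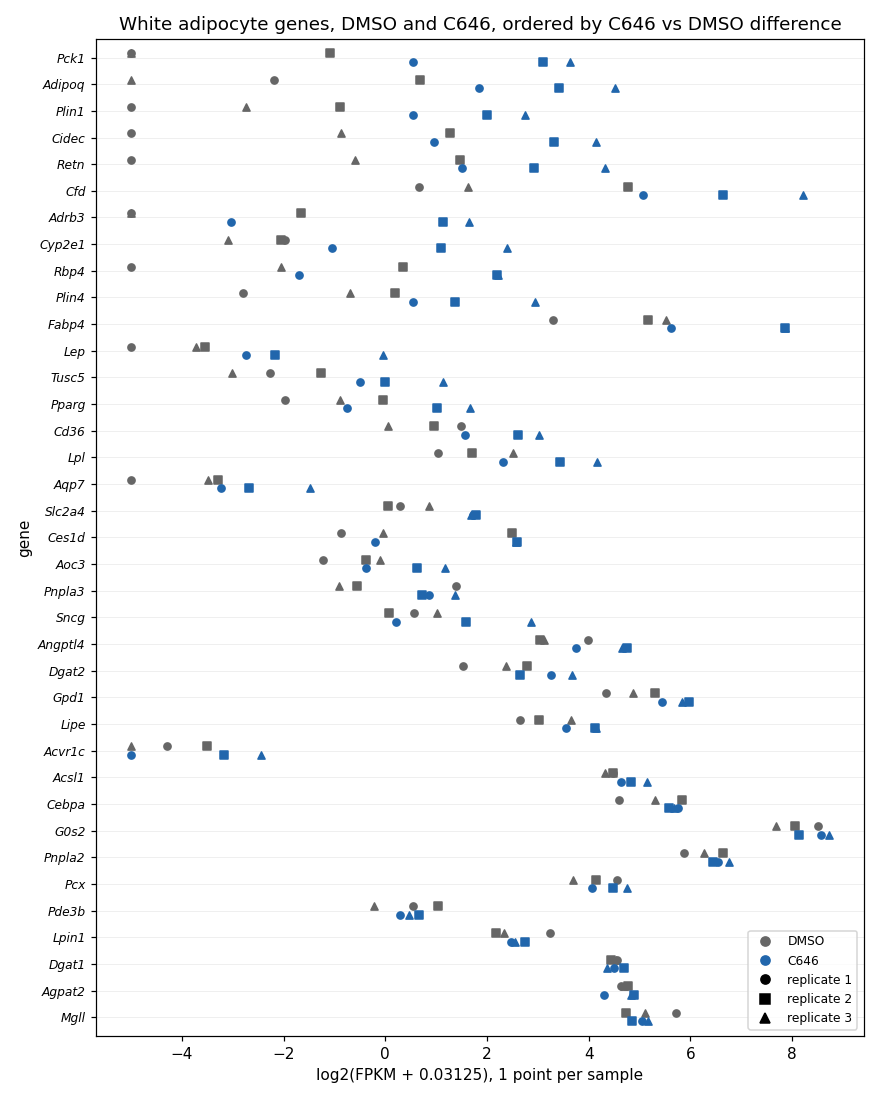
log2(FPKM + 0.03125) of each white adipocyte gene in the 3 DMSO (grey) and 3 C646 (blue) libraries, ordered by the C646 vs DMSO difference. A value listed at 0 lies at -5. C646 replicate 3 (triangles) is highest in 28 genes, and the groups overlap in 22.

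With the pseudocount of 0.03125, Pck1, which was added because it stood out in these data, had the largest log2 fold change of the members. It was at 0.438 FPKM in DMSO replicate 2 and listed at 0 in the other DMSO libraries, and at 1.43, 8.57 and 12.4 FPKM in C646. Its log2 fold change of 6.12 (SE 1.34) was set by the pseudocount. With a pseudocount of 0.25 it was 4.03, under Cfd with 4.20 and Adipoq with 4.08, and with a pseudocount of 1 it was 2.58, under Cfd with 3.93 and Adipoq with 2.90. Adipoq was at 0.186 and 1.57 FPKM in DMSO replicates 1 and 2, listed at 0 in DMSO replicate 3, and at 3.57, 10.6 and 22.8 FPKM in C646. Plin1 was listed at 0 in DMSO replicate 1, was at 0.509 and 0.119 FPKM in DMSO replicates 2 and 3, and at 1.42, 3.94 and 6.71 FPKM in C646. In these 3 genes the groups did not overlap, and C646 replicate 1 was the lowest C646 library.

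The 6 secreted proteins had a median log2 fold change of 3.72. Cfd was at 1.54, 27.2 and 3.05 FPKM in DMSO and at 33.3, 100 and 297 FPKM in C646. Retn was listed at 0 in DMSO replicate 1, was at 2.75 and 0.633 FPKM in DMSO replicates 2 and 3, and at 2.83, 7.61 and 20.0 FPKM in C646. In Retn the lowest C646 library lay just above DMSO replicate 2. Lep stayed under 1 FPKM in all 6 libraries, listed at 0 in DMSO replicate 1, at 0.0539 and 0.0444 FPKM in DMSO replicates 2 and 3, and at 0.118, 0.191 and 0.944 FPKM in C646. Angptl4 was at 15.7, 8.21 and 8.66 FPKM in DMSO and at 13.4, 26.9 and 25.1 FPKM in C646, and here the groups overlapped.

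Fabp4 was at 9.76, 36.1 and 45.9 FPKM in DMSO and at 48.8, 232 and 234 FPKM in C646. Cd36 was at 2.76, 1.92 and 1.00 FPKM in DMSO and at 2.95, 6.07 and 8.08 FPKM in C646. Lpl was at 2.03, 3.23 and 5.69 FPKM in DMSO and at 4.93, 10.7 and 17.8 FPKM in C646. Fabp4 and Cd36 did not overlap between the groups and Lpl did, with C646 replicate 1 the lowest C646 library in each.

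Slc2a4 had C646 values close to each other. It was at 1.19, 1.00 and 1.79 FPKM in DMSO and at 3.28, 3.42 and 3.21 FPKM in C646, a log2 fold change of 1.34 (SE 0.30). Cyp2e1 was at 0.224, 0.209 and 0.0860 FPKM in DMSO and at 0.451, 2.11 and 5.23 FPKM in C646. Both were apart between the groups. So were Gpd1, Acsl1, Plin4 and Tusc5, with log2 fold changes of 0.91, 0.44, 2.72 and 2.39. Aqp7, also apart, stayed under 1 FPKM in all 6 libraries, listed at 0 in DMSO replicate 1, at 0.0704 and 0.0582 FPKM in DMSO replicates 2 and 3, and at 0.0755, 0.125 and 0.328 FPKM in C646.

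Pparg was at 0.222, 0.935 and 0.511 FPKM in DMSO and at 0.561, 2.005 and 3.16 FPKM in C646. Cidec was listed at 0 in DMSO replicate 1, was at 2.38 and 0.514 FPKM in DMSO replicates 2 and 3, and at 1.92, 9.90 and 17.7 FPKM in C646. Adrb3 was at 0.286 FPKM in DMSO replicate 2 and listed at 0 in the other DMSO libraries, and at 0.0900, 2.16 and 3.08 FPKM in C646. In each of the 3 genes C646 replicate 1 lay below DMSO replicate 2, so the groups overlapped. Rbp4 overlapped in the same way, listed at 0 in DMSO replicate 1, at 1.24 and 0.211 FPKM in DMSO replicates 2 and 3, and at 0.279, 4.58 and 4.64 FPKM in C646. Acvr1c was at 0.0199 and 0.0567 FPKM in DMSO replicates 1 and 2 and at 0.0800 and 0.152 FPKM in C646 replicates 2 and 3, and it was listed at 0 in DMSO replicate 3 and C646 replicate 1. Smaller differences with overlap were those of Ces1d, Aoc3, Pnpla3, Sncg and Dgat2, with log2 fold changes of 1.12, 1.05, 1.02, 1.00 and 0.97.

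Cebpa, Pnpla2 and Lipe had log2 fold changes of 0.43 (SE 0.29), 0.32 (SE 0.21) and 0.84 (SE 0.29). Cebpa was at 24.0, 56.8 and 39.3 FPKM in DMSO and at 54.0, 48.1 and 51.0 FPKM in C646. Pnpla2 was at 59.0, 100.4 and 77.2 FPKM in DMSO and at 93.3, 87.6 and 109 FPKM in C646. Lipe was at 6.20, 8.10 and 12.5 FPKM in DMSO and at 11.8, 17.4 and 17.7 FPKM in C646. The groups overlapped in all 3 genes.
G0s2 was at 367, 265 and 207 FPKM in DMSO and at 381, 282 and 422 FPKM in C646. The smallest differences were those of Dgat1, Lpin1 and Pde3b, with log2 fold changes of 0.01 (SE 0.13), 0.01 (SE 0.29) and 0.02 (SE 0.43). Dgat1 was at 23.5, 21.6 and 23.1 FPKM in DMSO and at 22.6, 25.8 and 20.5 FPKM in C646. Lpin1 was at 9.35, 4.47 and 5.01 FPKM in DMSO and at 5.50, 6.67 and 5.82 FPKM in C646. Pde3b was at 1.44, 2.03 and 0.826 FPKM in DMSO and at 1.20, 1.56 and 1.35 FPKM in C646, again with overlap of the groups. Pcx, Agpat2 and Mgll had log2 fold changes of 0.30, -0.03 and -0.17, and the mean FPKM was not higher in C646 for Agpat2, Mgll, Lpin1 and Pde3b.

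C646 replicate 3 was the highest C646 library in 28 of 37 members and in 34.7% of all names at 1 FPKM or more. DMSO replicate 2 was the highest DMSO library in 21 members and in 28.4% of all names. C646 replicate 1 was the lowest C646 library in 29 members, and the share of all names for this count was not computed. Without C646 replicate 1 the groups were apart in 27 members, with 8.13% of all names, and without DMSO replicate 2 in 22, with 10.9% of all names. Without C646 replicate 3 the mean difference over the members on the log2 scale was 1.45, compared with 1.81 in all libraries.

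Markers of other cells varied among the libraries as well. The fibroblast markers summed to 145, 255 and 337 FPKM in DMSO and to 253, 275 and 528 FPKM in C646. The lowest and the highest of the 6 libraries were the same as for the mean over the adipocyte genes. By share of FPKM, the lowest library for the adipocyte genes was DMSO replicate 3. The macrophage markers summed to 147, 227 and 203 FPKM in DMSO and to 185, 181 and 243 FPKM in C646. Endothelial markers summed to 27.9, 27.0 and 48.1 FPKM in DMSO and to 37.8, 28.4 and 35.1 FPKM in C646. The muscle markers summed to 0.952, 2.15 and 366 FPKM in DMSO and to 378, 2.35 and 346 FPKM in C646. The brown adipocyte markers summed to 38.2, 18.9 and 19.2 FPKM in DMSO and to 42.4, 29.0 and 10.6 FPKM in C646. Without Cox7a1, which made up most of these sums, the other 4 summed to 4.08, 2.76 and 3.84 FPKM in DMSO and to 1.37, 11.3 and 3.79 FPKM in C646. Ucp1 was at 0.220 FPKM in DMSO replicate 2 and at 3.38 FPKM in C646 replicate 2, and listed at 0 in the other injected libraries. All 5 fibroblast markers had a log2 fold change above 0, from 0.25 to 0.84, as had 3 of 4 macrophage markers tested. Of the 4 endothelial markers tested, 3 lay below 0, as did 4 of 5 epithelial markers tested, and none of these markers passed the threshold. The part of these cells in the difference was not tested.

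Of the other adipocyte genes, 35 were tested between C646 and DMSO and 0 passed the limma threshold, with 1 higher and 1 lower at an unadjusted p under 0.05. These were Plin5, a droplet protein of oxidative tissue, with a log2 fold change of 1.15 (SE 0.48, adjusted p = 0.99), and Cebpd with -0.50 (SE 0.15, adjusted p = 0.99), both named after their values were seen. The median over the 35 genes was 0.16. Genes under the filter are not in these values. Among them, Hcar1 was at 0.0583, 0.0538 and 0 FPKM in DMSO and at 0.121, 0.430 and 0.626 FPKM in C646. Ffar2 was at 0.115, 0.107 and 0 FPKM in DMSO and at 0.240, 0.951 and 1.14 FPKM in C646. Mest went the other way, at 4.30, 0.893 and 1.14 FPKM in DMSO and at 0.399, 0.498 and 0.639 FPKM in C646. The remaining genes under the filter overlapped between the groups. The 9 lipid synthesis genes had a median log2 fold change of 0.52, and 8 of them lay above 0.

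Side by side with Normal, and in files made separately, every injected library lay below every Normal library in 36 members, all but G0s2, and in 23.3% of 18427 names. Fabp4 in C646 reached 1.47% of its Normal mean at most, Adipoq 1.66%, Lep 1.33%, Plin1 1.33% and Cfd 3.20%. In DMSO the highest shares were 0.289% for Fabp4, 0.114% for Adipoq, 0.0757% for Lep, 0.101% for Plin1 and 0.293% for Cfd.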

How the data were processed

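Poly-A RNA-seq libraries of a non-directional kit were used, so a gene cannot be told apart by strand from a gene that overlaps it. Of the members, 10 share exon bases with another gene in GENCODE vM21, most for Adrb3 (24.9%), Lipe (15.6%) and Gpd1 (13.0%). Before extraction of RNA the authors discarded the oil that floats after centrifugation. After trimming with cutadapt, the authors used TopHat2 2.1.1 for mapping to mm10 and Cufflinks 2.2.1 for FPKM per gene, which they deposited. Read totals are not given. The steps of FPKM values under 0.1 give depth ratios of 0.755 to 1.29 in 9 pairs of injected libraries, 1.18 for Normal replicate 3 over 1 and 1.53 for Tumor replicate 3 over 1.

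The 1837 rows without a gene name in each Normal and Tumor file were left out, and FPKM was summed over repeated names. Genes joined in a row with other genes were left out of the lists, unless the others were microRNAs only, as for Pdgfra with Mir7025. log2(FPKM + 0.03125) was tested with limma 3.58.1 in R 4.3.3 (trend, Benjamini-Hochberg over all genes) where 3 or more of 6 libraries reached 1 FPKM. Fold changes on this scale understate those of low genes. The script was tested on simulated data. Members and lists were chosen with earlier results of these data known. Genes given in every library were 18 set by name, with the 3 largest and 3 smallest log2 fold changes of each contrast, and for other adipocyte genes the 5 largest past the threshold in each direction. Figures used Python 3.11.15 with matplotlib 3.10.9.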

Additional observations from a re-analysis of the deposited data

How the results depend on the processing

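Results were recomputed with a pseudocount of 1 or 0.25, without the filter on low values, with median ratio scaling, with quantile normalization, with a replicate block and without each library in turn. Quantile normalization moved the median of all genes in Tumor vs Normal from -0.02 to 0.12. In Tumor vs Normal, 36 members were past the threshold as lower, and 34 to 36 when 1 library was left out, since without any 1 Normal library Pde3b and Acvr1c no longer reached the filter. As higher, 0 were past it, and 0 to 1 when 1 library was left out (G0s2, without Tumor replicate 3). Of the other adipocyte genes, 5 were higher, and 3 with no filter on low values, with quantile normalization and with the replicate block, and 3 to 4 when 1 library was left out. Hcar1, Npr3 and Ffar4 likewise fell under the filter without a Normal library. The median of the members was -5.47 with a pseudocount of 1 and -7.32 to -5.72 when 1 library was left out. In C646 vs DMSO, no member was past the threshold under any alternative. The mean difference over the members was 1.81, and 1.00 with a pseudocount of 1. Between 15 and 27 members were apart between the groups when 1 library was left out. The 27 were reached without C646 replicate 1, where 8.13% of all names were apart in the same direction. Without DMSO replicate 2, 12 genes of the whole table were past the threshold as lower, none of them a member. None of 351 alternative values for single named genes in Tumor vs Normal reversed a call, and 16 values, of Abhd5 and Cebpd, missed the threshold. The samples share only a replicate number. The deviations of same-numbered libraries correlated at -0.04, -0.10 and 0.01 in Tumor vs Normal and at 0.17, 0.07 and 0.11 in C646 vs DMSO, and C646 replicate 3 correlated best with DMSO replicate 2 (0.14). With the replicate block, 3827 genes were lower and 3439 higher in Tumor vs Normal, compared with 4128 and 3758 without it, and 0 in C646 vs DMSO. Apart from the losses to the filter, the cause of these shifts was not tested. Depth is unknown, and members under 1 FPKM rest on few reads.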
